A study of Mus musculus with 8 samples.

Results

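Matricellular proteins are secreted into the extracellular matrix, where they bind structural fibres, growth factors and cell surface receptors without forming the load-bearing scaffold themselves. The 10 genes described here encode periostin (Postn), tenascin C (Tnc), fibronectin (Fn1), SPARC (Sparc), the thrombospondins Thbs1, Thbs2, Thbs3 and Thbs4, collagen triple helix repeat containing 1 (Cthrc1) and spondin 2 (Spon2). Fibronectin is a fibrous glycoprotein of the matrix itself and stands among them as the partner that many of them bind. They were taken by name from the 30743 genes of the expression table, and all 10 were among the 15073 genes expressed highly enough to be tested. The genes were chosen by a list drawn up with the contrast between transgenic and control muscle already known, and the large rises of Postn, Tnc and Cthrc1 were part of that choice. Their values in this contrast are therefore given as a description, with no p-value.

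Gastrocnemius muscle was taken from 8 male mice of the strain label Myo L8, aged 4 months and starved overnight before collection. Double transgenic (DTG) mice, 4 in number, carried 1256[3Emut]Mck-rtTA, a doxycycline-dependent transactivator under a muscle creatine kinase promoter, together with TRE-myrAkt1, a membrane-targeted form of the kinase Akt1 that the transactivator switches on. The 4 MckrtTA control mice were single transgenic littermates that carried the transactivator alone. Both groups drank doxycycline at 0.5 mg/ml for 2 weeks, so the transactivator and the drug are common to both. The promoter drives the transgene in muscle fibres, whereas RNA was taken from the whole muscle, and fewer cells of a type and less RNA per cell cannot be told apart in such samples. PolyA RNA was sequenced on 2 lanes, with DTG mice 253 and 283 and MckrtTA mice 255 and 281 on lane 1, and DTG mice 282 and 306 and MckrtTA mice 280 and 307 on lane 8.

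Each value is called signal here. It is an estimate of the reads of a gene, made with RSEM and scaled by the authors so that the 75th percentile of all genes in a library is 1000. Libraries held 45.6 to 58.6 M estimated reads, and the summed signal was 1.91 times as high in MckrtTA as in DTG libraries. Akt1 had a signal of 53654 ± 14928 (SD, n = 4) in DTG and 4622 ± 471 (SD, n = 4) in MckrtTA muscle, and it was highest in mouse 253. That DTG mouse stood apart from the other 3: among the 2207 genes called higher in DTG muscle, it had the lowest DTG value in 1525 (69.1%). The fold change of each member is for that reason given with and without it. A gene is called higher or lower where limma, fitted on log2(signal + 10) over all 15073 tested genes, gave at least a 2-fold difference with an adjusted p (Benjamini-Hochberg) below 0.005.

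In adult muscle the matricellular genes are known mostly from regeneration, overload and fibrosis, when fibroblasts, macrophages and other mononuclear cells lay down a provisional matrix. Fibronectin and tenascin C form part of that matrix, periostin joins it to collagen through Bmp1 and integrins, and SPARC binds collagen and calcium. Thrombospondins 1 and 2 are trimers with anti-angiogenic activity, and thrombospondins 3 and 4 are pentamers of a sister subgroup.

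The start regions of 4 members are shown because they cover the range of responses described here. Postn and Tnc had very large rises from a low level, Sparc had the highest mean level per length in both groups, and Thbs4 made up most of the thrombospondin signal. Each is the 300-base window around an annotated start in RefSeq on GRCm38.p6, the assembly also called mm10, read 5′ to 3′ on the strand of the gene. Capitals mark matches, on either strand, to the motifs that were searched: AP-1 as TGANTCA, TEAD as GGAATG, SMAD as GTCTG, the SP1 motif as GGGCGG, the TATA box as TATAAA and an E-box as CAGCTG.
Postn, chr3:54360857-54361156, plus strand: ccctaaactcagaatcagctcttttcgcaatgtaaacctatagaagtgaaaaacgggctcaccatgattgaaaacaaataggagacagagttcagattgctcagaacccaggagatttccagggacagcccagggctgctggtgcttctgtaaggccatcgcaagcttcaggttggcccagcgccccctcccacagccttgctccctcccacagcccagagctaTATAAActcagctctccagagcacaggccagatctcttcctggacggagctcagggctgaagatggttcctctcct
Tnc, chr4:64046966-64047265, minus strand: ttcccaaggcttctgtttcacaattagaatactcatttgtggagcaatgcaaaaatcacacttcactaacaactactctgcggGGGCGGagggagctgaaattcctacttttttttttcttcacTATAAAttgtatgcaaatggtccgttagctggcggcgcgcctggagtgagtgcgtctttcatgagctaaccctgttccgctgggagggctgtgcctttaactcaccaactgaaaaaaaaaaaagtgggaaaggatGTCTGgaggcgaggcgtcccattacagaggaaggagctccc
Sparc, chr11:55420031-55420330, minus strand: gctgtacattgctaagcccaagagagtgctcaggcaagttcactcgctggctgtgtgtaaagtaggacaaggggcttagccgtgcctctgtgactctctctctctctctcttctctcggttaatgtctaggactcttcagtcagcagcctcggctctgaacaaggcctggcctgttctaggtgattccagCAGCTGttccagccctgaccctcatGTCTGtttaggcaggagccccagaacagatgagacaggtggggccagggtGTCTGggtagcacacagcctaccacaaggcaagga
Thbs4, chr13:92794769-92795068, minus strand: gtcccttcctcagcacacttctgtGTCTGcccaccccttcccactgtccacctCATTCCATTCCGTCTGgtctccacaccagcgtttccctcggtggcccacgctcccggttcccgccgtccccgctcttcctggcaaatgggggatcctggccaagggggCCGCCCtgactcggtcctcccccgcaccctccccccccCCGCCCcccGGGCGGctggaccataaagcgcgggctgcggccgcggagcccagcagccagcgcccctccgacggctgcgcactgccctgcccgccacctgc

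Postn and Tnc have 2 windows each in RefSeq, and the one whose start lies nearest to the gene start in GENCODE is shown. That Postn window holds TATAAA at position -26 from the start and no other searched motif, whereas the other Postn window has CAGAC, the reverse complement of GTCTG, at -191 and no TATAAA. In the Tnc window shown GGGCGG lies at -167, TATAAA at -126 and GTCTG at 9, just inside the transcript, and in the other, which is offset by the distance between the starts, the same 3 matches lie at -246, -205 and -70 with a further CAGAC at 39. Sparc has CAGCTG at -60 and GTCTG at -35 and 15. In Thbs4 a pair of overlapping CATTCC matches, the reverse complement of GGAATG, begins at -197 and -192 and runs into GTCTG at -186, a further GTCTG lies at -226, and GGGCGG or its reverse complement is found at -89, -51 and -42. A promoter entry was matched for 6 of the 10 members, Postn, Tnc, Sparc, Thbs2, Thbs3 and Thbs4, with 8 windows between them. Fn1, Thbs1, Cthrc1 and Spon2 were not matched.

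Across those 8 windows GTCTG was present in 6, against 49.6% of all 32851 promoter windows. TATAAA was present in 4 of 8, against 13.6% of all windows, and 2 of those 4 are the overlapping windows of Tnc. GGGCGG was present in 4 of 8, against 35.7%. GGAATG was present in 1 of 8, against 14.7%, CAGCTG in 1 of 8, against 16.3%, and TGANTCA in 0 of 8, against 7.81%. A match says only that these letters occur in the window.

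Transcripts of 7 of the 10 genes rose in DTG muscle: Postn, Tnc, Fn1, Sparc, Thbs1, Thbs4 and Cthrc1. None was called lower, and the log2 fold change was positive in all 10. Among all 15073 tested genes, 14.6% were called higher and 16.0% lower, and nothing is read from the difference because the list was selected on this contrast. The median log2 fold change of the 10 members was 2.27, beside -0.26 for all tested genes. The same 7 genes were the ones whose 4 DTG values all lay above all 4 control values, a separation found in 22.2% of tested genes. In the other 3, Thbs2, Thbs3 and Spon2, mouse 253 fell inside or below the control range.

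**Figure D1:**
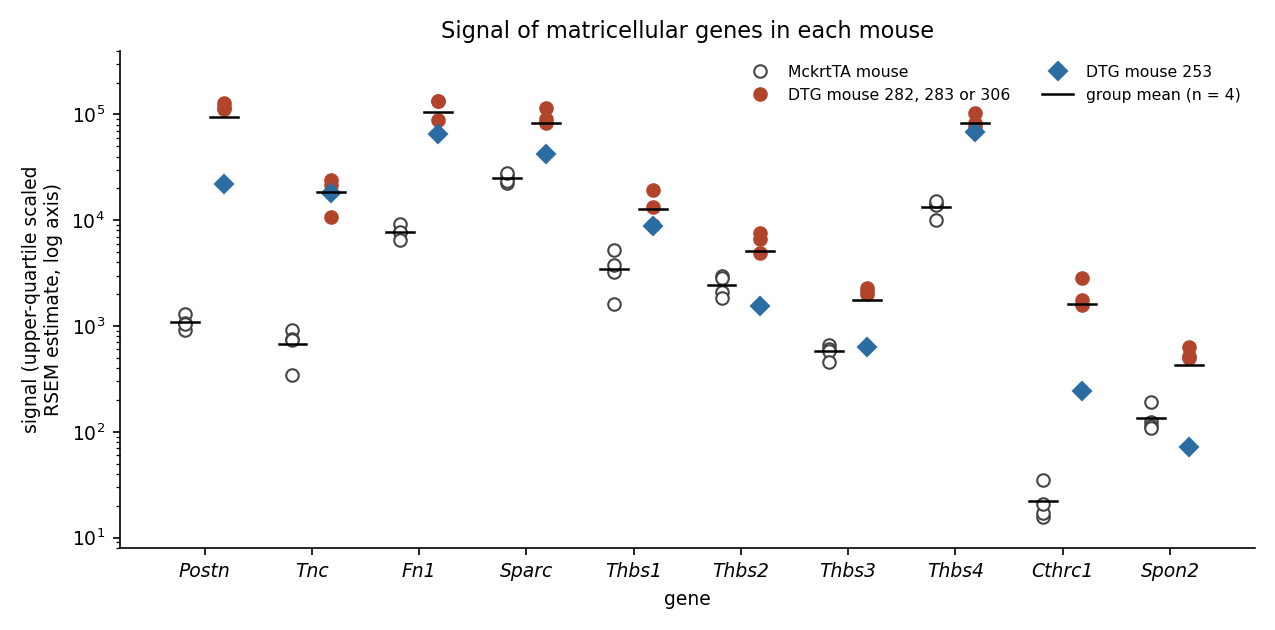
Signal of the 10 genes in each of the 8 mice on a log axis, with open circles for MckrtTA mice, red circles for DTG mice 282, 283 and 306, blue diamonds for DTG mouse 253 and lines at group means (n = 4). The groups are separate in 7 genes, and in Thbs2, Thbs3 and Spon2 the diamond lies among or below the open circles.

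Fibronectin assembles into fibrils through the integrin of Itga5 and Itgb1 and carries binding sites for collagen, heparin and tenascin C. Fn1 (chr1:71585520-71653200, minus strand, 46 exons) had a signal of 64934 in mouse 253, 135085 in mouse 282, 133923 in mouse 283 and 89051 in mouse 306. The control signals were 7688 in mouse 255, 9263 in mouse 280, 7659 in mouse 281 and 6512 in mouse 307. Every DTG mouse was above every control, the lowest of them at 7.01 times the highest control. The group means were 105748 ± 34637 and 7780.4 ± 1129.8 (SD, n = 4 each), a log2 fold change of 3.71 (standard error 0.24) that stood at 3.92 without mouse 253.

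Tenascin C is a hexameric glycoprotein that loosens the adhesion of cells to fibronectin and appears in muscle after injury and loading. Tnc (chr4:63959785-64047015, minus strand, 26 exons) had a signal of 18237 in mouse 253, 21538 in mouse 282, 23960.3 in mouse 283 and 10803 in mouse 306. In controls it stood at 912 in mouse 255, 746 in mouse 280, 344 in mouse 281 and 730 in mouse 307. The groups did not overlap, and here mouse 306 was the lowest DTG mouse while mouse 253 lay close to the other 2. The means of 18635 ± 5724 and 683 ± 240 (SD, n = 4 each) gave a log2 fold change of 4.77 (standard error 0.33), which was 4.76 without mouse 253.

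Periostin is a fasciclin-domain protein that binds integrins, brings Bmp1 to collagen and fibronectin, and is a marker of activated fibroblasts. Postn (chr3:54361109-54391037, plus strand, 22 exons) had a signal of 22172 in mouse 253, 117027 in mouse 282, 128490 in mouse 283 and 111516 in mouse 306. The control values were 1289.8 in mouse 255, 921 in mouse 280, 1072 in mouse 281 and 1044 in mouse 307. Mouse 253 was thus far below the other 3 DTG mice, which lay close together, and still at 17.2 times the highest control. The group means were 94801 ± 48933 and 1082 ± 153 (SD, n = 4 each), a ratio of 87.6. Its log2 fold change was 6.17 (standard error 0.50), rank 13 of the 15073 tested genes, and 6.78 without mouse 253.

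SPARC, also called osteonectin, is a collagen chaperone of the matrix that is made by many mesenchymal and endothelial cells. Sparc (chr11:55394500-55423183, minus strand, 10 exons) had a signal of 42424 in mouse 253, 91266 in mouse 282, 113836 in mouse 283 and 82905 in mouse 306. The controls stood at 22435 in mouse 255, 26892 in mouse 280, 23645 in mouse 281 and 27792 in mouse 307. The groups were separate, but mouse 253 was only 1.53 times the highest control. From means of 82608 ± 29805 and 25191 ± 2559 (SD, n = 4 each), the log2 fold change was 1.63 (standard error 0.27), and 1.92 without mouse 253. Fn1 and Sparc were thus at unlike ratios in the groups: Fn1 signal was 1.32 ± 0.224 times that of Sparc in DTG libraries and 0.311 ± 0.0522 times in controls (SD, n = 4 each).

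Cthrc1 encodes a secreted glycoprotein with a short collagen-like stretch that limits collagen deposition in injured arteries and takes part in Wnt signalling. Cthrc1 (chr15:39076932-39087121, plus strand, 4 exons) had a signal of 243 in mouse 253, 1757 in mouse 282, 2821 in mouse 283 and 1590.2 in mouse 306. Control values of 34.8 in mouse 255, 15.7 in mouse 280, 17.2 in mouse 281 and 20.8 in mouse 307 correspond to about 15, 7, 6 and 7 estimated reads. The gene was close to the lower limit of these libraries in control muscle, and all 4 DTG mice were above it, mouse 253 by the least. Means of 1603 ± 1058 and 22.1 ± 8.71 (SD, n = 4 each) are in a ratio of 72.4. The log2 fold change was 5.25 (standard error 0.65), and 5.996 without mouse 253, but the small control values make it depend on the amount added before the logarithm, with 5.74 when 1 was added and 4.13 when 50 was added.

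Thrombospondin 4 is the thrombospondin of tendon and striated muscle, where it binds matrix at the junction of muscle and tendon and also acts inside the endoplasmic reticulum. Thbs4 (chr13:92751590-92794818, minus strand, 22 exons) had a signal of 68724 in mouse 253, 102927 in mouse 282, 82217 in mouse 283 and 75489 in mouse 306. The control mice had 14266 in mouse 255, 14041 in mouse 280, 9966 in mouse 281 and 15158 in mouse 307. Both groups were tight and wide apart, and mouse 253 was only slightly below the next DTG mouse. Thbs4 averaged 82339 ± 14790 in DTG and 13358 ± 2312 in MckrtTA muscle (SD, n = 4 each), with a log2 fold change of 2.62 (standard error 0.17) and 2.71 without mouse 253.

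Thrombospondin 1 binds Cd36 and Cd47 and can activate latent TGF-beta, and platelets store large amounts of it. Thbs1 (chr2:118111876-118127133, plus strand, 22 exons) had a signal of 8828 in mouse 253, 19512 in mouse 282, 8968 in mouse 283 and 13322 in mouse 306. The controls had 3210.2 in mouse 255, 3755 in mouse 280, 1613 in mouse 281 and 5255 in mouse 307. The lowest DTG mouse was 1.68 times the highest control, and mice 253 and 283 were nearly equal. Thbs1 rose by a log2 fold change of 1.91 (standard error 0.37), or 2.06 without mouse 253, from 3458 ± 1504 to 12657 ± 5023 (SD, n = 4 each). Of 4 platelet markers, Pf4, Ppbp and Itga2b were called higher in DTG muscle and Gp1bb was not called. The summed signal of the 4 markers was 2185 to 4039 in DTG and 305 to 401 in MckrtTA libraries. Most of it was Pf4, at 2622 ± 961 in DTG and 242 ± 34.8 in MckrtTA muscle (SD, n = 4 each). Ppbp and Gp1bb were close to the lower limit in controls, at no more than 16.2 and 11.2. None of the 4 markers was at 0 in all libraries, and their part in the Thbs1 values was not tested.

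Thrombospondin 2 is a matrix protein of fibroblasts that influences collagen fibril assembly. Thbs2 (chr17:14665500-14694235, minus strand, 22 exons) had a signal of 1549 in mouse 253, 6664 in mouse 282, 7495 in mouse 283 and 4915 in mouse 306. Its control values were 2986 in mouse 255, 2110.1 in mouse 280, 1851 in mouse 281 and 2851 in mouse 307. Mouse 253 lay below every control and the other 3 DTG mice above every control. The log2 fold change of 0.88 (standard error 0.44) was not called, and it was 1.38 (standard error 0.19) and called higher without mouse 253.

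Thrombospondin 3 is the pentameric relative of Thbs4 and is expressed in growing cartilage and bone. Thbs3 (chr3:89215180-89226837, plus strand, 23 exons) had a signal of 633 in mouse 253, 2125 in mouse 282, 2268 in mouse 283 and 1988 in mouse 306. The controls stood at 659 in mouse 255, 607 in mouse 280, 579 in mouse 281 and 459.9 in mouse 307. Mouse 253 lay within the control range and the other 3 DTG mice well above it. The log2 fold change of 1.44 (standard error 0.37) was not called, while 1.88 (standard error 0.12) without mouse 253 was. Thbs3 overlaps Mtx1 in the annotation. Mtx1 had a signal of 899.6 ± 51.5 in DTG and 1183 ± 54.9 in MckrtTA libraries (SD, n = 4 each), and the sources do not say whether strand was used when reads were assigned.

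Spondin 2, also called mindin, is a secreted thrombospondin-repeat protein that binds bacterial surfaces and leukocyte integrins. Spon2 (chr5:33198184-33218455, minus strand, 6 exons) had a signal of 72.4 in mouse 253, 499 in mouse 282, 636 in mouse 283 and 521 in mouse 306. Controls had 123 in mouse 255, 115 in mouse 280, 109 in mouse 281 and 189.9 in mouse 307. As with Thbs2, mouse 253 was below all controls and the remaining DTG mice above all of them. The log2 fold change was 1.30 (standard error 0.59) and not called with all mice, and 1.99 (standard error 0.20) and called higher without mouse 253.

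**Figure D2:**
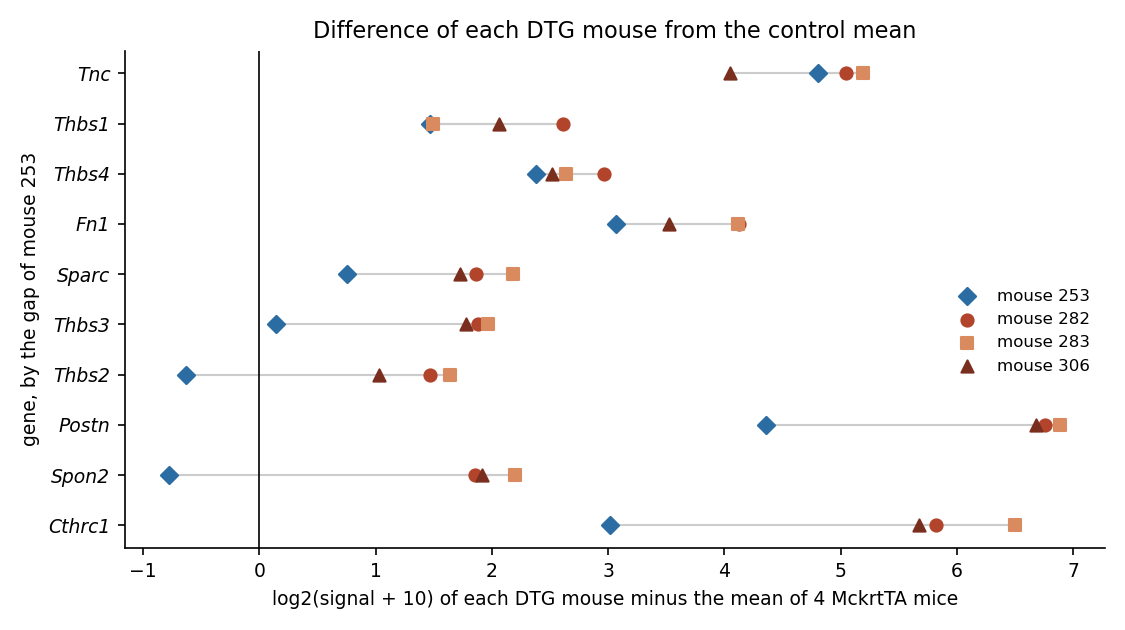
Difference of each DTG mouse from the mean of the 4 MckrtTA mice in log2(signal + 10), for the 10 genes sorted by the gap of mouse 253 (blue diamond) to the other 3. Mouse 253 runs from close to the others in Tnc, Thbs1 and Thbs4 to below the control mean in Thbs2 and Spon2.

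Mouse 253 did not stand lower to the same degree in all members. It was the lowest DTG mouse in 9 of the 10 genes, Tnc being the exception, and in 69.1% of all 2207 genes called higher. On the log2 scale its difference from the next DTG mouse was -2.66 in Cthrc1, -2.63 in Spon2, -2.33 in Postn, -1.66 in Thbs2 and -1.64 in Thbs3. The gap was -0.97 in Sparc, -0.46 in Fn1, -0.14 in Thbs4 and -0.02 in Thbs1. In Tnc it was 0.75 above the lowest other DTG mouse. Against the control mean, mouse 253 stood at 4.80 for Tnc and 4.35 for Postn, while the other 3 DTG mice stood at 4.05 to 5.20 for Tnc and 6.68 to 6.89 for Postn. Postn signal was 1.22 times that of Tnc in mouse 253 and 5.36 to 10.3 times in the other DTG mice. Without mouse 253, 10 of 10 members were called higher, where 18.3% of all tested genes were.

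The calls also moved with the lane, and the fold changes with the scale. Within lane 8, 2 mice against 2, 10 of 10 members were called higher (16.6% of tested genes), and within lane 1, which holds mouse 253, 0 of 10 were (0.358% of tested genes). The log2 fold changes in lane 1 were nonetheless close to those of all mice in several members, at 5.19 for Tnc, 3.60 for Fn1, 2.66 for Thbs4, 1.96 for Thbs1 and 1.59 for Sparc. They were lower in Postn (5.49), Cthrc1 (4.60), Thbs3 (0.95), Spon2 (0.88) and Thbs2 (0.53). Setting all library totals equal shifted the median over all tested genes by 0.92 on the log2 scale, and 8 of 10 members were then called higher, among 30.8% of tested genes. On that scale the log2 fold change was 7.12 for Postn, 6.06 for Cthrc1, 5.71 for Tnc, 4.66 for Fn1, 3.57 for Thbs4, 2.86 for Thbs1 and 2.58 for Sparc. Thbs3 was the gene added, at 2.38, and Thbs2 at 1.82 and Spon2 at 2.20 were not called.

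**Figure D3:**
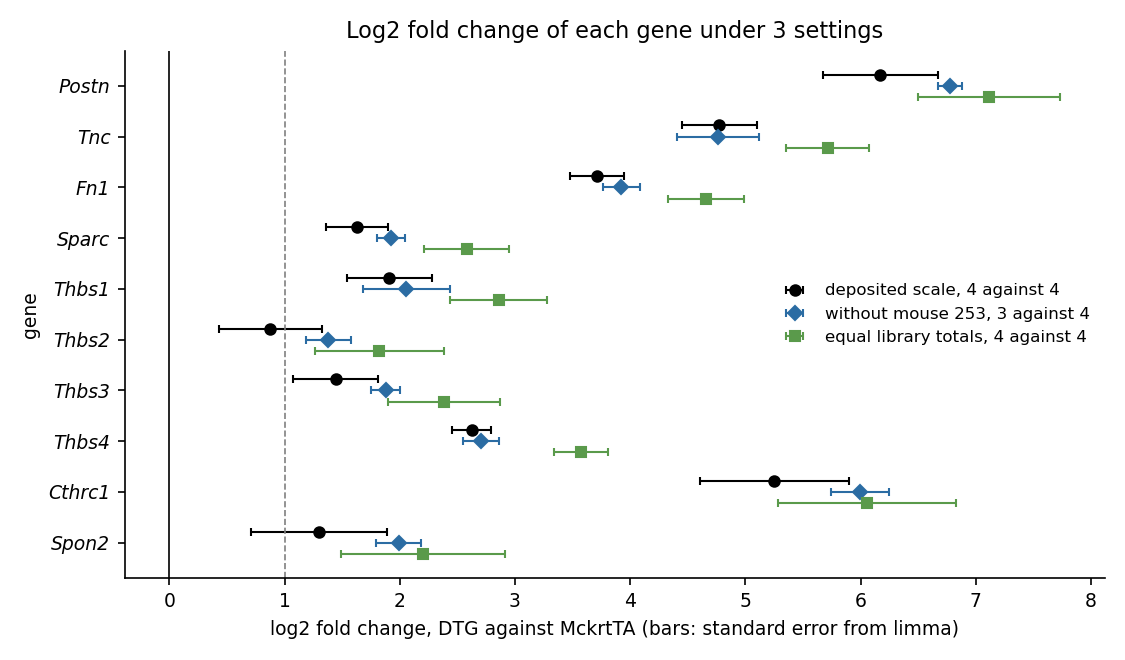
Log2 fold change of each gene, DTG against MckrtTA, on the deposited scale (black), without mouse 253 (blue) and with equal library totals (green), with limma standard errors as bars and a dashed line at a fold change of 2. The bars of Thbs2, Thbs3 and Spon2 shrink when mouse 253 is left out, while Tnc keeps its place at 4.77 and 4.76.

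Set against each other per kilobase of transcript, the members changed order. In control muscle Sparc was first with a signal per kilobase of 10953 ± 1113 and Thbs4 second with 4177 ± 723 (SD, n = 4 each), each clear of the next gene in every mouse. Fn1 at 936, Thbs1 at 591, Thbs2 at 416 and Postn at 338 followed as means with ranges that overlapped from one to the next. Thbs3 at 181 stood alone below them, then came Tnc at 96.2 and Spon2 at 65.6, which overlapped, and Cthrc1 was last at 19.0.

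In DTG muscle the signal per kilobase was 35916 ± 12959 for Sparc, 29579 ± 15268 for Postn and 25747 ± 4625 for Thbs4 (SD, n = 4 each), and the ranges of these neighbours overlapped. By its mean, Postn thus stood below Thbs2 in control muscle and among the first 3 genes in DTG muscle, but in mouse 253 it was below Fn1, with 11.6% of the members' summed signal per base against 13.1%, and Thbs4 (36.2%) was above Sparc (31.0%). Fn1 came next at 12718, clear of Thbs4 above and of Tnc below. Tnc at 2625, Thbs1 at 2164, Cthrc1 at 1374, Thbs2 at 875, Thbs3 at 549.7 and Spon2 at 211 overlapped each with the next. Together the 10 genes took 0.614% ± 0.264 of the summed signal in DTG and 0.0408% ± 0.00474 in MckrtTA libraries (SD, n = 4 each), with the lowest DTG share, 0.251%, in mouse 253.

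Within the thrombospondins Thbs4 predominated per length in all 8 libraries. It made up 88.0% ± 2.50 of the summed signal per base of the 4 genes in DTG and 78.1% ± 1.88 in MckrtTA muscle (SD, n = 4 each). Thbs1 held 7.24% in DTG and 10.6% in control muscle, Thbs2 2.89% and 7.76%, and Thbs3 1.84% and 3.50%. Every DTG library had a larger Thbs4 share than every control library. Since the shares come from the values that chose the genes, they are given without a test.

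**Figure D4:**
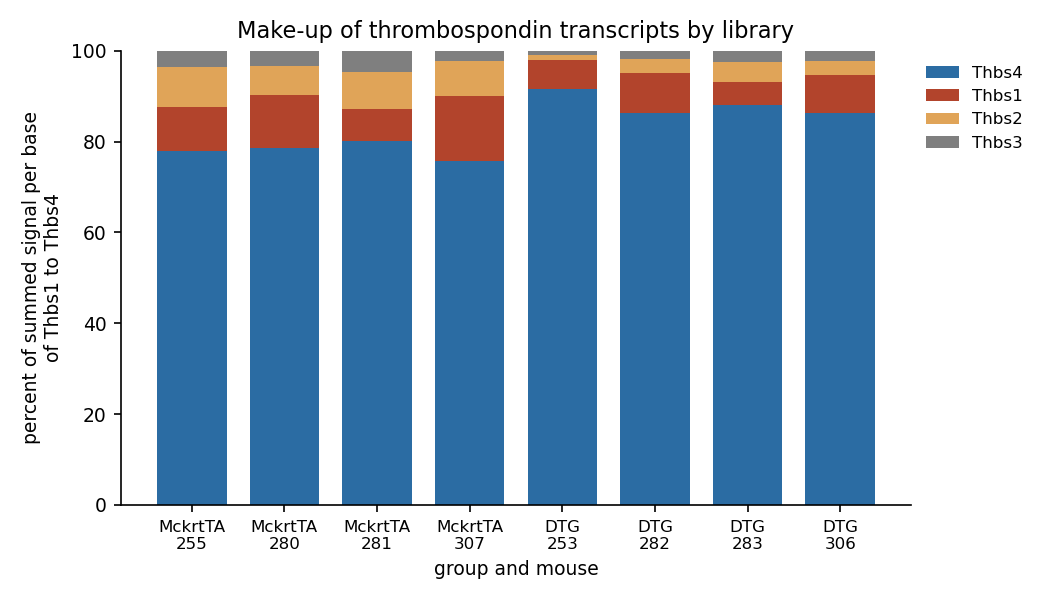
Share of each thrombospondin gene in the summed signal per base of Thbs1 to Thbs4, in percent, for the 4 MckrtTA and 4 DTG libraries. Thbs4 takes 75.6% to 80.2% in control and 86.2% to 91.6% in DTG libraries.

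Among related matricellular genes that are not members, 6 of the 18 tested were called higher, 1 was called lower and 11 were not called. Over all tested genes 14.6% were called higher and 16.0% lower. The median log2 fold change was 0.71, beside -0.26 for all tested genes. These genes were chosen with earlier results of these data known. The list held 23 genes of the same families, of which Tnr, Tnn, Spock1, Spock3 and Wisp3 were too low to be tested, and without mouse 253 the counts were 7 higher and 1 lower. Osteopontin (Spp1), a phosphoprotein ligand of integrins and Cd44, rose from 298 ± 60.3 to 22264 ± 15776 (SD, n = 4 each), a log2 fold change of 5.88 (limma adjusted p = 9.4e-06). Its DTG values were 7354 in mouse 253, 27214 in mouse 282, 42249 in mouse 283 and 12241 in mouse 306, all far above the controls at 246 to 364. Wisp1, a CCN family protein downstream of Wnt signalling, rose by a log2 fold change of 4.50 (limma adjusted p = 5.3e-06). Tgfbi, a fasciclin-domain relative of periostin, rose by 2.23 (limma adjusted p = 4.2e-05) and was highest in mouse 253, at 14261 against 6600 to 8776 in the other DTG mice. Fstl1, a SPARC-related glycoprotein, rose by 2.37 (limma adjusted p = 0.000130), and the matrix glycoprotein Fbln2 by 1.35 (limma adjusted p = 0.000221). Ctgf, a CCN protein induced by TGF-beta, rose by 1.24 (limma adjusted p = 0.00353), but it was highest in mouse 253, and at 0.98 without that mouse its fold change was under 2. Spock2, a testican proteoglycan of the SPARC family, fell by 1.18 (limma adjusted p = 0.00138), a call lost with equal totals, where the log2 fold change was -0.25. Comp, a pentameric thrombospondin like Thbs4, had a log2 fold change of -0.84 (limma adjusted p = 0.123) and is named for that kinship, after its values were seen.

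Of 25 tested receptors and partners of these proteins, 10 were called higher, 3 lower and 12 were not called. Over all tested genes 14.6% were called higher and 16.0% lower. The median log2 fold change was 0.97, beside -0.26 for all tested genes. This list too was chosen with earlier results of these data known. Without mouse 253 the counts were 11 higher and 3 lower. Itga5, the alpha chain of the fibronectin receptor, rose by a log2 fold change of 2.56 (limma adjusted p = 7.3e-06), from 1158 ± 50.2 to 7136 ± 2237 (SD, n = 4 each). Stab1, a scavenger receptor of macrophages that takes up SPARC, rose by 3.29 (limma adjusted p = 0.000271), and its DTG signal was 5178 in mouse 253 and 15110.3 to 34242 in the others. Tgfb1, the growth factor whose latent form thrombospondin 1 binds, rose by 2.26 (limma adjusted p = 0.000185), Lrp1, an endocytic receptor of thrombospondins, by 1.73 (limma adjusted p = 0.000204), and the integrin chain Itgb3 by 1.37 (limma adjusted p = 0.000479). Cd47, a thrombospondin 1 receptor, rose by 1.02 (limma adjusted p = 0.000240). Itga9, Itgb1, Sdc4 and Tgfbr2 were the other genes called higher, although Itgb1, at a log2 fold change of 1.02, was at 0.80 and not called without mouse 253. Unlike Postn, Itga5, Itgb1 and Sdc4 were highest in mouse 253 among the DTG mice. The 3 genes called lower on the deposited scale, and not with equal totals, were Cacna2d1, a calcium channel subunit that binds thrombospondins (log2 fold change -1.60, limma adjusted p = 6.6e-05), Stim1, the calcium sensor of the endoplasmic reticulum (-1.10, limma adjusted p = 1.3e-05), and Ptprz1, a receptor phosphatase that binds tenascins (-1.57, limma adjusted p = 0.00165). Itgb8 was too low to be tested.

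**Figure D5:**
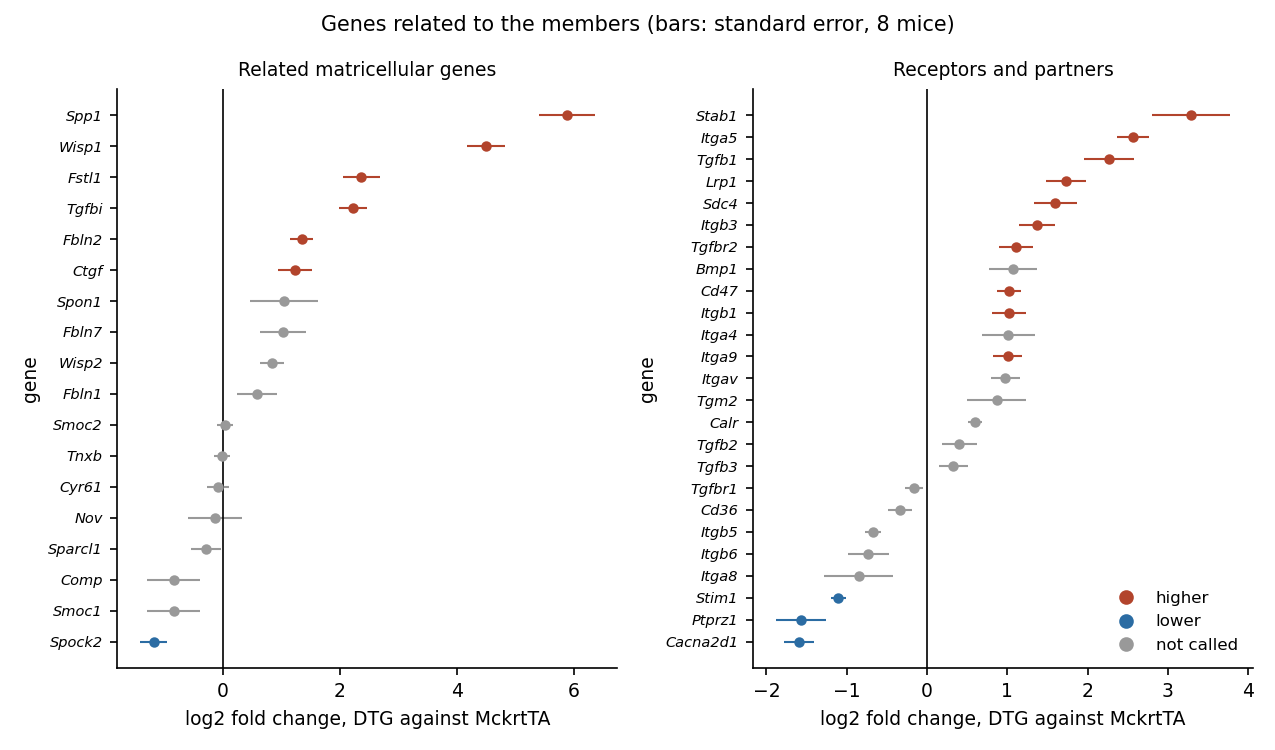
Log2 fold change, DTG against MckrtTA, of 18 related matricellular genes (left) and 25 receptors and partners (right), with limma standard errors as bars and colours for genes called higher, called lower or not called. Spp1 and Wisp1 lead the first list and Stab1 and Itga5 the second, and 3 receptors and partners lie at the lower end with Cacna2d1 at -1.60.

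Markers of cell types differed in direction, and their part in these results was not tested. The median log2 fold change was 4.72 for macrophage, 1.59 for fibroblast and 0.72 for satellite cell and myoblast markers. It was -1.14 for tenocyte and -1.88 for muscle fibre markers. All 7 macrophage markers were called higher (Emr1, Csf1r, Cd68, Mrc1, Lyz2, Itgam and C1qa, of which Lyz2 had the highest signal and Emr1 the lowest over the means of both groups), with a summed signal of 4313 to 5702 in MckrtTA libraries, 58853 in mouse 253 and up to 198664 in the other DTG mice. Itgam went against that sum, at 10023 in mouse 253 and 5175 to 7102 in the other DTG mice, whereas the remaining macrophage markers were lowest in mouse 253. Of 11 fibroblast markers 6 were called higher and none lower: Pdgfra, Lum, Mfap5, Col1a1, Col1a2 and Col3a1, while Dcn, Dpt, Pdgfrb, Pi16 and Clec3b were not called. Of those not called, Dcn and Clec3b had negative log2 fold changes, at -0.53 and -0.73. Dpt (0.46), Pdgfrb (0.39) and Pi16 (0.46) were positive. Dcn was at 33284 to 36425 in DTG and 43694 to 55339 in MckrtTA libraries. The fibroblast sum was 100935 to 123369 in MckrtTA and 166989 to 793353 in DTG libraries, where it was again lowest in mouse 253. Most of the DTG sum came from Col3a1, Col1a2 and Col1a1. Pdgfra was not lowest in mouse 253, at 7123 there and 6419 in mouse 306, and Dcn was nearly level over the DTG mice. The highest means of this list were those of Col3a1, Col1a2 and Col1a1 in DTG muscle and that of Dcn in MckrtTA muscle. Tenocytes are known to express Thbs4 and Tnc, and their markers were split, with Scx and Egr1 called higher, Tnmd, Mkx and Fmod not called, and sums of 9935 to 21957 in DTG and 13023 to 30444 in MckrtTA libraries. Satellite cell and myoblast markers summed to 12389 to 18429 in DTG and 3682 to 4774 in MckrtTA libraries, with Myod1 and Myog called higher of 5. Pax7, Myf5 and Cdh15 were not called, at log2 fold changes of 0.21, 0.72 and -0.05. The defining markers of muscle fibre were abundant in all 8 libraries, with sums of 4178730 to 9190800 in DTG and 15628700 to 17846400 in MckrtTA muscle, and 3 of 6, Ckm, Tnnt3 and Tnni2, were called lower on the deposited scale. Without mouse 253, 5 of the 6 were, and with equal totals the genes called lower were Tnnt3 and Myh4. None of these markers was at 0 in all libraries.

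The genes with profiles most like those of the 3 steepest members were sought over all tested genes, by the root mean square difference over the 8 libraries of log2(signal + 10) less the control mean. This measure depends largely on the size of the rise, which was part of the choice of these members, so it returns genes that rose as much. Which cells made the transcripts was not tested. For Postn the nearest genes were Mpeg1 (0.146), a perforin-like gene of macrophages, Trem2 (0.304), a myeloid receptor, and the cysteine protease gene Ctss (0.362). Cthrc1 was the nearest other member to Postn, in place 23 at 0.704, and Tnc was at 1.32. The nearest to Tnc were the claudin gene Cldn2 (0.334), the leukocyte adaptor gene Lcp2 (0.345) and Evi2b (0.353). The nearest to Cthrc1 were the myeloid lectin gene Clec12a (0.389), Ms4a7 (0.392) and Ly9 (0.416). Mpeg1 stood at 4.65 above the control mean in mouse 253 and at 6.78 to 7.01 in the other DTG mice on the log2 scale, beside 4.35 and 6.68 to 6.89 for Postn.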

How the data were processed

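PolyA RNA of the gastrocnemius of 8 mice, 4 DTG and 4 MckrtTA, was sequenced as stranded paired-end libraries. The authors mapped reads to mm10 transcripts with RSEM (the labels also name BWA) and deposited signal values, estimated reads of each gene scaled by the upper quartile of its library. They compared groups with edgeR on reads, which were not used here. The signal of 1 read was estimated for each library, and 88.3% to 89.6% of low values came within 0.1 of a whole number of such reads. These estimated reads serve here only to describe depth and low values, and no count test was run. Groups came from the genotype label and lanes from the run name. The 0 columns left unused, and the authors' own comparisons, entered no result.

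With limma 3.58.1 in R 4.3.3, log2(signal + 10) was modelled with trended variances and no covariate for the 15073 genes that reached a signal of 25 in at least 3 libraries. The fit was tried on libraries simulated from the control means, with a single low spread for all genes. It recovered 49 or 50 of each 50 genes changed 3-fold or 4-fold in either direction. The simulation held no outlying mouse and did not model the difference in summed signal, so it does not cover those features of these data. Members and lists were chosen with earlier results of these data known. Named are all members, called genes of the other lists (at most the 6 smallest adjusted p in each direction, other called genes by name only), the 3 nearest profiles, Akt1 and the extremes of marker lists. Alternatives changed the added amount, the minimum, the scaling, the moderation and the threshold, used 1 lane or a lane term, and left out each mouse. Signal per kilobase used GENCODE M21 transcript lengths, and coordinates are on GRCm38. Sequences are from RefSeq. One marker list is not reported here.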

Additional observations from a re-analysis of the deposited data

Results flagged for a closer look

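Postn in the DTG group had a value far from the others. Mouse 253, the lowest, had a signal of 22172, while the other 3 DTG mice lay at 111516 to 128490, and the gap took 0.840 of the range of the group, above the critical value of Dixon's test for 4 samples. Of the 20 groups of values examined, 10 genes in either group of mice, this was the 1 that passed, and chance marks about 1 group in 20. Postn was called higher with and without that mouse.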

How the results depend on the processing

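All 7 members called higher remained so under every alternative except lane 1 alone, where 0 members, 0 related genes and 0 receptors and partners were called higher and 0 of either list lower. In lane 1 alone, 0.358% of all tested genes were called higher and 0.0265% lower. With equal totals 17 receptors and partners were called higher and 0 lower, whereas scaling by trimmed means left 1 lower and scaling by median ratios left 1. Related genes called lower were 0 under each of these 3 scalings and within lane 8. A shift of scale, or fewer mice, is part of how these alternatives are made. Leaving out each mouse in turn gave 7 to 10 members higher and 0 lower, 5 to 7 related genes higher and 0 to 1 lower (0 without mouse 280 of the controls), and 6 to 11 receptors and partners higher (6 without DTG mouse 282) and 2 to 3 lower. Those fits called 12.5% to 18.3% of all tested genes higher and 13.9% to 19.1% lower. Across alternatives 174 fold changes of single members kept their direction and call, 9 gained a call, 7 lost one and 0 changed sign. No paired analysis was possible because the labels name each mouse by a number of its own, and the replicate numbers used here only name mice. A fit with lane as a covariate called the same 7 members higher. The few estimated reads of Cthrc1 in controls limit the precision of its fold change.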

Other observations

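Other marker lists held values that enter no comparison of the matricellular genes. Endothelial markers, made up of Pecam1, Cdh5, Kdr, Tek and Emcn, summed to 17025 to 25169 in DTG and 26226 to 28812 in MckrtTA libraries, and Kdr alone was called lower. Smooth muscle markers summed to 3070 to 13885 in DTG and 8501 to 12883 in MckrtTA libraries, where Myh11 was called lower and Acta2 and Cnn1 were not called. With equal totals neither Kdr nor Myh11 was called lower.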
